A study of Rattus norvegicus with 2 samples.

Results

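The cells described here are the 568 treated rat neural stem cells in which 9 genes of the ATF4 stress programme took the largest share of the transcripts. They were taken from 2838 treated cells that had at least 5000 unique molecular identifiers (UMIs, tags that count each captured RNA molecule once), of which at most 10% came from mitochondrially encoded genes. Both libraries of the series together held 4691 barcodes, 3849 of them treated. In each cell the UMIs of Trib3, Chac1, Asns, Cth, Pck2, Slc7a11, Slc7a3, Ddit3 and Sesn2 were added up and divided by all UMIs of the cell. This stress share ranked the treated cells, and the top 20% are called the upper cells. They were compared across all other genes with the 568 cells between 40% and 60% of the ranking, called the middle cells. Since the 9 genes chose the cells, their levels are a description of the choice and not a finding. The cells were selected on measured UMIs, and the upper cells are a stretch of a continuous score rather than a type of cell.

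The cultures were primary neural stem cells of Sprague-Dawley rats (Rattus norvegicus), taken from the cortex of E14.5 embryos, bought as a commercial stock and grown with the growth factor FGF2. In the treated culture ZD7288, which blocks HCN channels (ion channels opened by hyperpolarisation), was added at 30 µM from a stock in DMSO that made up 0.2% of the medium. The vehicle culture received the DMSO alone. Both lasted 48 h, with fresh medium and compound at 24 h, and the characteristics of the treated sample spell the compound ZD2788. Each group was 1 culture captured in droplets as 1 library (10x Chromium 3′ kit, version 2), so culture, library and treatment cannot be told apart, and cells of 1 culture are not replicates. No test was therefore made: ratios are given with exact 95% intervals that cover counting error only.

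ATF4 is the transcription factor at the centre of the integrated stress response. When amino acids run short, the endoplasmic reticulum is overloaded, haem is lacking or mitochondria are disturbed, kinases phosphorylate the initiation factor eIF2, general translation slows, and the Atf4 message is translated more. ATF4 protein then switches on genes that make and import amino acids and charge tRNAs, together with the regulators Ddit3 (CHOP), Trib3 and Ppp1r15a, through which the response feeds back on itself or turns towards cell death.

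The upper cells held 14103399 UMIs in all and the middle cells 14618129. A median upper cell had 23716 UMIs and 4109.5 detected genes, and a median middle cell had 24161.5 UMIs and 4073.5 genes. The median mitochondrial share was lower in the upper cells, at 4.13% against 4.72%, and it was 5.70% in the 20% of treated cells with the lowest stress share and 5.87% in vehicle cells. Of the upper cells 6 (1.06%) were marked as likely doublets, against 22 of the middle cells (3.87%). Only the number that follows the hyphen in a barcode ties cells to libraries, matched to the number in each sample title. Among all barcodes 3 occurred in both libraries, 0 of them among the upper and 1 among the middle cells.

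The upper cells were chosen by the stress share among treated cells only, and it set them apart from all vehicle cells that passed the same filter. It ran from 1496 to 3299 UMIs of every 1000000 in the upper cells, with a median of 1724, and from 840.3 to 1157 in the middle cells, with a median of 1007. The lowest upper cell stood at 1496.34 and the next cell below it at 1495.86, so the edge lies within a continuous distribution. Of 710 vehicle cells that passed the same filter 0 reached the edge. Their median was 68.0 and their maximum 915.5, and a count of 0, taken to allow up to 3, allows a share of up to 0.423% of vehicle cells. A median upper cell carried 42 UMIs of the 9 genes (range 9 to 103), a median middle cell 24.5 and a median vehicle cell 1. All 9 genes were detected in 284 of the 568 upper cells, in 74 middle cells (13.0%) and in 0 vehicle cells.

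**Figure D1:**
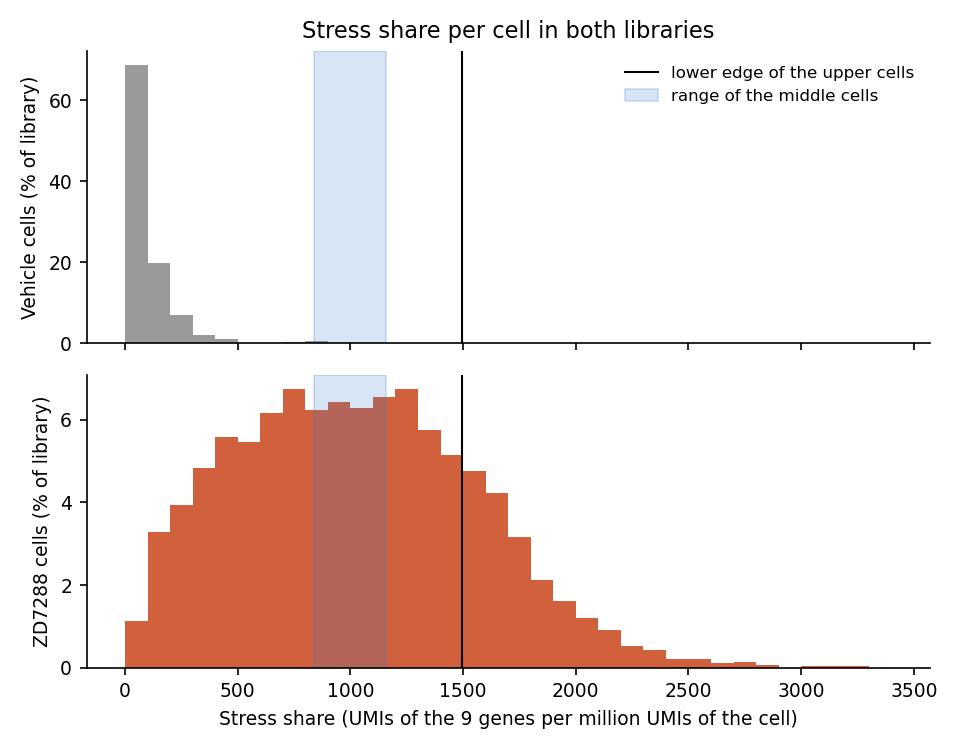
Stress share per cell (x axis, UMIs of the 9 ranking genes per 1000000 UMIs of the cell) as a percentage of vehicle cells (top) and ZD7288 cells (bottom) in bins of 100, with the lower edge of the upper cells as a line and the range of the middle cells shaded. The treated cells form 1 broad hump from 0 to 3299 that the edge at 1496 cuts without a gap. All vehicle cells that passed the filter lie below 916.

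The score of a single cell rests on few UMIs. When each cell was thinned to 5000 UMIs, the 9 genes together had a mean of 9.07 UMIs in upper, 5.05 in middle and 0.437 in vehicle cells. Over all treated cells the variance was 2.21 times the mean at this depth. When cells were ranked on a random 50% of their UMIs, 430 of the 568 upper cells (75.7%) were the same cells. The full ranking also used those UMIs, so this share does not measure agreement between separate sets of UMIs. The UMIs left over gave a summed level of the 9 genes of 1585 UMIs per 1000000 (CPM) in upper and 1061 CPM in middle cells. That ratio was 1.49, where the same UMIs used for ranking and measuring gave 1.78.

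For the following values the treated cells were cut into 5 groups of 567 or 568 cells by stress share, from group 1 (lowest) through group 3 (the middle cells) to group 5 (the upper cells). UMIs were summed over the cells of a group and scaled to 1000000.

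The markers given for the programme were all present in the upper cells. Trib3, a pseudokinase that ATF4 and CHOP induce and that holds both in check, stood at 7.65, 22.3, 53.2, 90.4 and 156 CPM from group 1 to group 5 and at 0.707 CPM in vehicle cells. Its ratio of upper to middle cells was 2.93 (2.70 to 3.18). Ddit3, which encodes the death-linked factor CHOP, stood at 16.7, 23.9, 38.9, 65.4 and 111 CPM, and the vehicle level of 16.3 CPM was close to that of group 1. The ratio of Ddit3 between upper and middle cells was 2.87 (2.60 to 3.16). Chac1, a glutathione-degrading enzyme, stood at 18.3, 39.5, 57.9, 72.3 and 87.4 CPM with 3.73 CPM in vehicle cells, a ratio of 1.51 (1.38 to 1.65). Asns, asparagine synthetase, stood at 129.8, 264, 339, 394 and 469 CPM with 35.4 CPM in vehicle cells, a ratio of 1.39 (1.34 to 1.44).

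The remaining 5 genes serve cysteine, amino acid transport and metabolism. Cth, which releases cysteine from cystathionine, had a ratio of 2.57 (2.40 to 2.74) and stood at 18.9, 42.3, 83.9, 139 and 215 CPM against 3.54 CPM in vehicle cells. Slc7a3, a carrier of cationic amino acids, reached 323 CPM in upper and 177 CPM in middle cells (1.83-fold, 1.74 to 1.92). Sesn2, a leucine sensor that restrains mTORC1, reached 196 and 116 CPM (1.69-fold, 1.59 to 1.80). Pck2, the mitochondrial phosphoenolpyruvate carboxykinase, reached 131 and 77.5 CPM (1.69-fold, 1.57 to 1.82), and Slc7a11, the cystine importer, 104 and 64.0 CPM (1.63-fold, 1.5 to 1.77). Vehicle levels of these 5 genes lay between 3.28 and 19.2 CPM.

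**Figure D2:**
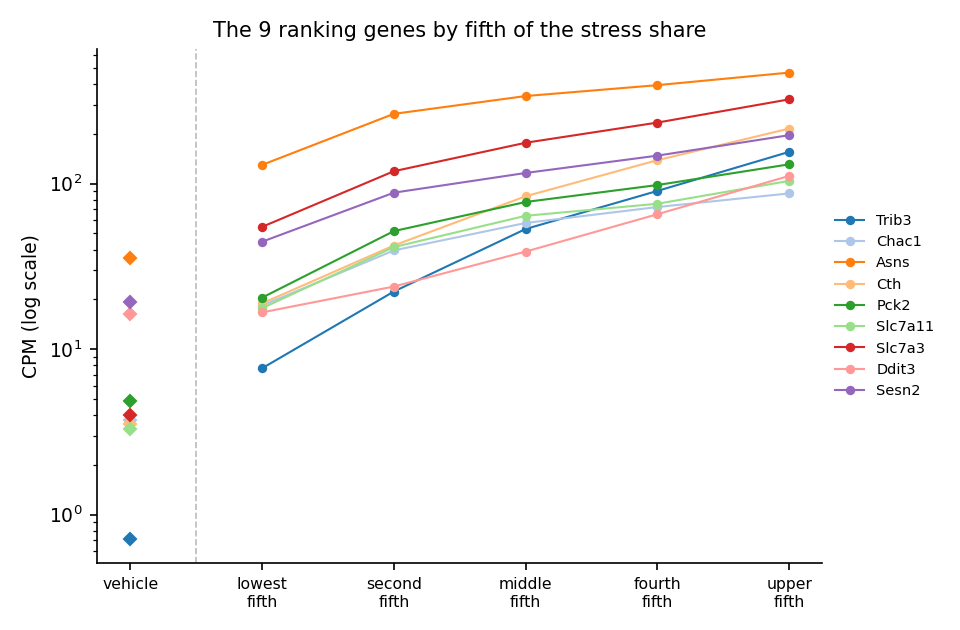
Summed level of each ranking gene (y axis, CPM on a log scale) in vehicle cells (diamonds) and in the 5 groups of treated cells from the lowest to the highest stress share (circles joined by lines). Every gene is higher in each group than in the one before it, which the ranking itself brings about.

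To see each gene without its own weight in the ranking, cells were ranked by the other 8. Trib3 then had a ratio of 2.26 (2.09 to 2.45), Ddit3 2.10 (1.91 to 2.31), Cth 1.63 (1.53 to 1.74), Pck2 1.49 (1.38 to 1.61), Slc7a3 1.44 (1.37 to 1.51), Slc7a11 1.37 (1.26 to 1.49), Sesn2 1.36 (1.27 to 1.44), Chac1 1.27 (1.16 to 1.39) and Asns 1.22 (1.17 to 1.26). These ratios too are a description of the ranking genes within 1 library. Trib3 UMIs were found in 92.6% of upper, 62.7% of middle and 1.27% of vehicle cells. At an even depth of 5000 UMIs these shares were 55.8%, 19.4% and 0.141%. Free RNA was not measured, since no other cell type was present in number.

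The promoters of 3 ranking genes hold the C/EBP-ATF response element, the composite site that ATF4 is known to bind with a C/EBP partner, within 250 bases before the start of the gene. The letters searched were TGATGNAA on both strands, in RefSeq promoter windows of assembly GRCr8 from 250 bases before to 50 after the start. A window was matched for 8 of the 9 genes, not for Slc7a3. The sequences are printed because these genes make the score. Each runs 5′ to 3′ in the direction of its gene and ends at the base before the start, with the match, which lies on the opposite strand of the gene, in capitals. Trib3 is on the minus strand at chr3:161275534-161275783, Chac1 on the plus strand at chr3:126795881-126796130 and Pck2 on the plus strand at chr15:32997603-32997852.
Trib3: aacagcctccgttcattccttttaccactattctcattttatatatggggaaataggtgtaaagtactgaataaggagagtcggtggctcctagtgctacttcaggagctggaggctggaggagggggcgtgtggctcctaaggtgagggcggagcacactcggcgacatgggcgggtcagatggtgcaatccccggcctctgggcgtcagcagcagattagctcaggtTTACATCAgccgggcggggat
Chac1: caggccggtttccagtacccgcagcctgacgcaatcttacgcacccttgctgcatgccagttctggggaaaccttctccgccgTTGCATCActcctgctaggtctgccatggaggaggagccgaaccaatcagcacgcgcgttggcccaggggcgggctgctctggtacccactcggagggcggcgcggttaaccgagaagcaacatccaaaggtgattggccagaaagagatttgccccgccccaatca
Pck2: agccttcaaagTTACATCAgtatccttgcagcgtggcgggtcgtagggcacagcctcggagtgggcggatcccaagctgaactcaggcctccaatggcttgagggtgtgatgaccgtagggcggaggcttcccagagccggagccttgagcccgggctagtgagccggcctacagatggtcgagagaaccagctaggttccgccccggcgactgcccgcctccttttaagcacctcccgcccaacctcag
The matches begin 21, 167 and 239 bases before the start of Trib3, Chac1 and Pck2. In all, 1048 of 27457 promoter windows (3.82%) hold these letters. A match is a run of letters and not a shown binding site, and its absence from the other 5 windows says nothing about binding there.

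Outside the 9 genes, 4692 genes were measured, meaning at least 20 CPM in the upper or the middle cells. A gene was called higher at 25% or more above the middle level and lower at 20% or more below it, the same fold either way. By this rule 224 genes were higher in the upper cells, 4.77% of those measured, and 47 were lower, 1.00%, so that 5.78% were called in either direction. The upper cells thus differed from the middle cells by small steps in few genes: 35 genes were higher and 2 lower by 1.5-fold, and 6 were higher and 0 lower by 2-fold. The median log2 ratio of all measured genes was 0.04. Of the called genes 9 of the higher and 2 of the lower ones have no gene symbol. The most abundant of them, AC134224.3, named after its value was seen, stood at 15526, 15883, 16745, 18992 and 22071 CPM from group 1 to group 5 and 10902 CPM in vehicle cells, and was 1.32-fold (1.31 to 1.33) higher. Scaled by that median gene ratio in place of all UMIs, the rule called 157 genes higher and 67 lower. The middle level was under 20 CPM for 67 of the 224 genes, and the upper level was under it for 16 of the 47, so these genes were measured only through the group in which they were high.

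**Figure D3:**
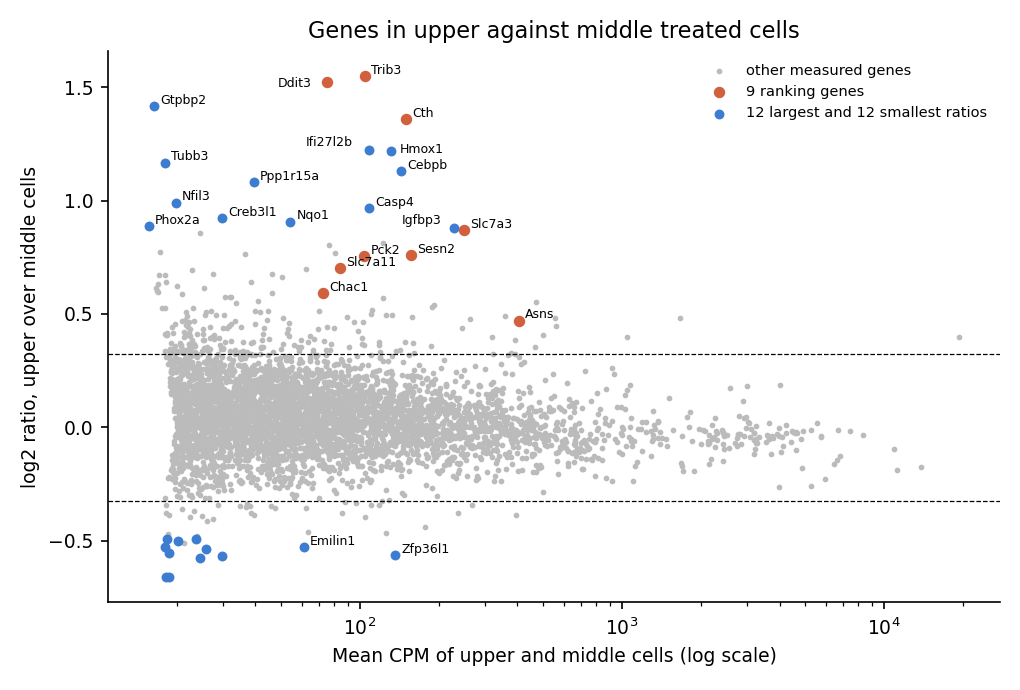
Ratio of upper to middle cells (y axis, log2) against the mean CPM of both groups (x axis, log scale) for 4692 measured genes in grey, the 9 ranking genes in orange and the 12 largest and 12 smallest ratios of other genes in blue, with dashed lines at the rule. Most genes lie between the lines, and stress genes such as Gtpbp2, Hmox1, Cebpb and Ppp1r15a stand among the ranking genes.

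Several stress regulators had among the largest ratios of the genes that did not take part in the ranking. Gtpbp2, which helps to rescue stalled ribosomes, had the largest of all, 2.67 (2.17 to 3.29). The middle level of Gtpbp2, like those of Tubb3, Nfil3 and Phox2a further on, was under 20 CPM, so it was measured only through the upper cells. Its level was 7.08, 7.96, 8.96, 13.8 and 23.9 CPM from group 1 to group 5 and 8.55 CPM in vehicle cells, so groups 1 to 3 lay near the vehicle level and group 5 above it. Cebpb, a C/EBP transcription factor that pairs with ATF4, stood at 35.8, 61.8, 90.2, 139 and 197 CPM and at 19.4 CPM in vehicle cells, and was 2.19-fold (2.05 to 2.34) higher in the upper cells. Ppp1r15a (GADD34), the phosphatase subunit that reverses eIF2 phosphorylation, stood at 16.4, 17.7, 25.2, 35.8 and 53.4 CPM and at 10.8 CPM in vehicle cells, and was 2.12-fold (1.86 to 2.40) higher. Creb3l1, a membrane-bound stress transcription factor, was 1.89-fold (1.64 to 2.19) higher, at 38.9 CPM against 20.5 CPM and 1.54 CPM in vehicle cells.

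The Atf4 transcript itself was not called. It stood at 186, 271, 327, 367 and 408 CPM from group 1 to group 5 and at 139 CPM in vehicle cells, and its ratio of upper to middle cells was 1.246 (1.2 to 1.3), just under the rule. With cells ranked on 50% of their UMIs and measured in the rest the ratio was 1.293. It was 1.255 with Slc7a11 left out of the ranking and 2.197 against the 20% of cells with the lowest stress share, all past the rule. Among cells below the median of cell cycle UMIs it was 1.280, and among the other cells 1.230. It was 1.247 ranked on Ddit3, Trib3, Chac1 and Sesn2, and 1.187 ranked on Asns, Cth, Pck2, Slc7a11 and Slc7a3. The lowest log2 ratio of Atf4 over the 24 settings was 0.18, so alternatives fell on both sides of the rule. Cebpg, another C/EBP partner of ATF4, was 1.41-fold (1.32 to 1.51) higher. Of the 11 measured stress regulators outside the ranking 6 were higher and 0 lower, where 4.77% of all measured genes were higher. Their median log2 ratio was 0.39. All 11 had a ratio above 1. Of the 14 members under 20 CPM in both groups 11 had more CPM in the upper and 2 in the middle cells.

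**Figure D4:**
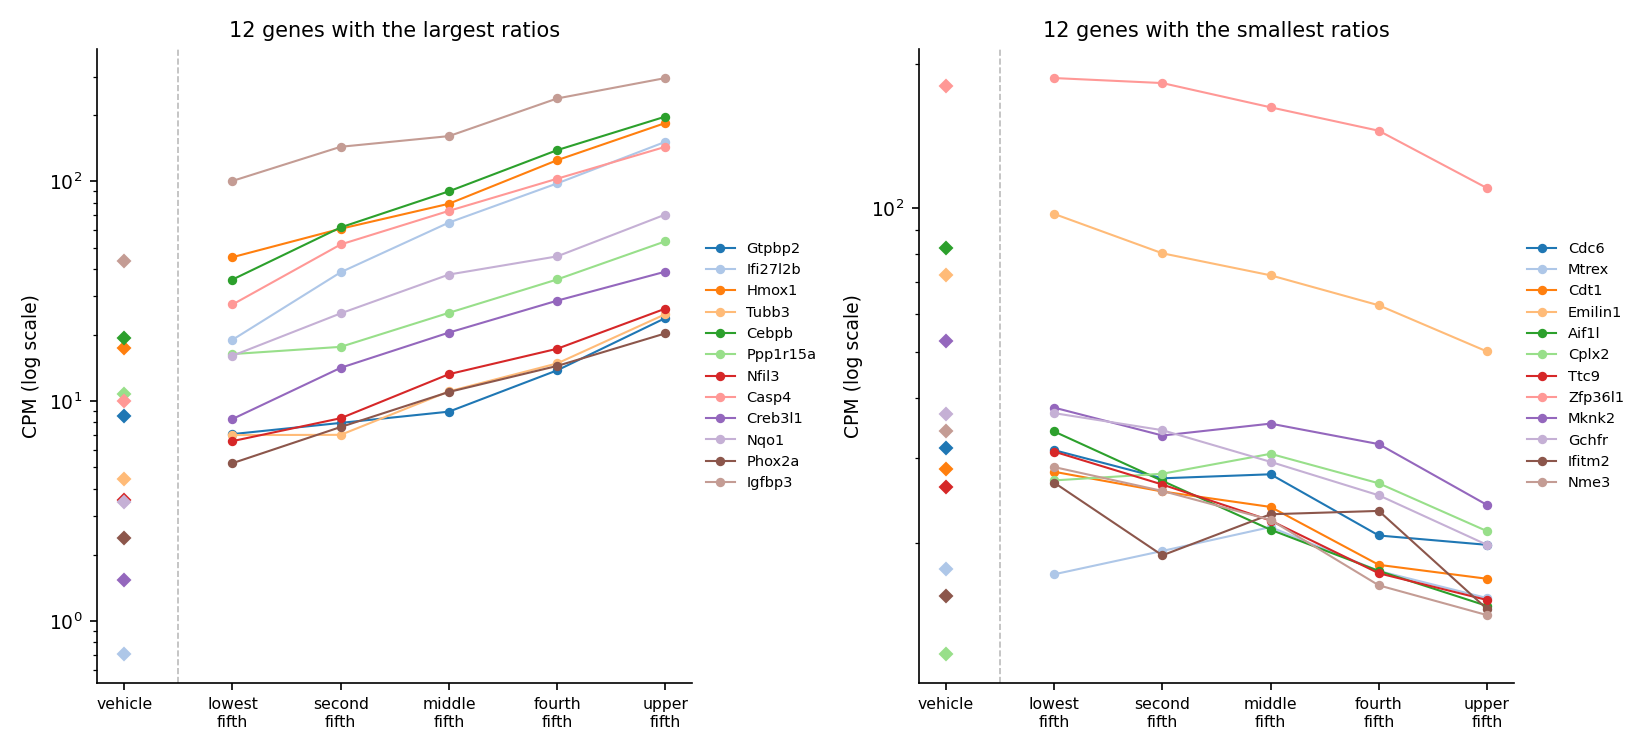
Summed level (y axis, CPM on a log scale) of the 12 genes with the largest ratios (left) and the 12 with the smallest (right) outside the ranking, in vehicle cells (diamonds) and in the 5 groups of treated cells ordered by stress share (circles). On the left most levels step upwards across the groups, as for Cebpb from 35.8 to 197 CPM, and on the right most decline, as for Zfp36l1 from 187 to 110.0 CPM.

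Known ATF4 targets that were kept out of the ranking were higher as a group. Of the 34 measured, 18 were higher by the rule and 0 lower, where 4.77% of all measured genes were higher. All 34 had a ratio above 1, and their median log2 ratio was 0.33 against 0.04 over all genes. Of the 12 members under 20 CPM in both groups 9 had more CPM in the upper and 1 in the middle cells. Summed over the list, the level was 4997, 7108, 8608, 9669.7 and 10853 CPM from group 1 to group 5 and 2630.4 CPM in vehicle cells. The median was 0.32 with cells ranked on 50% of their UMIs and measured in the rest. It was 0.23 among cells with at most 5% mitochondrial UMIs. All 34 genes also belong to the regulator, transporter, enzyme and synthetase lists described next, so those lists are not separate evidence.

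Amino acid transporters were mostly higher. Of the 8 measured 7 were higher and 0 lower, where 4.77% of all measured genes were higher, and the median log2 ratio was 0.36. The glutamine carrier Slc38a1 was 1.55-fold (1.29 to 1.87) higher and the neutral amino acid carrier Slc1a4 1.36-fold (1.2 to 1.54) higher. Slc3a2, the heavy chain that carries Slc7a11 and Slc7a5 to the membrane, stood at 468, 709.6, 904, 1027 and 1190.1 CPM from group 1 to group 5 and 186 CPM in vehicle cells, a ratio of 1.32 (1.29 to 1.35). Slc7a1, an arginine and lysine carrier, was 1.29-fold (1.16 to 1.42) higher. In the 21 other settings that move a ratio, the fold of Slc38a1 stayed past the rule in all but 1, that of Slc1a4 in all but 4 and that of Slc7a1 in all but 7. The middle level of Slc38a1 was under 20 CPM.

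Enzymes of the pathways that ATF4 feeds were not alike. Over all measured genes 4.77% were higher. Of 9 measured enzymes of serine synthesis and folate one-carbon metabolism 3 were higher and 0 lower (median log2 ratio 0.24). These were Psph, the last step of serine synthesis, at 1.39-fold (1.33 to 1.46), the mitochondrial Shmt2 at 1.33-fold (1.28 to 1.37) and Mthfd2 at 1.26-fold (1.21 to 1.3), whose fold was under the rule in 9 of the 21 settings. Shmt2 stood at 239, 350.2, 431, 488 and 572 CPM from group 1 to group 5. Of 9 measured enzymes of glutamate, proline and alanine metabolism 0 passed the rule, with a median of 0.01, and their 2 most abundant members were Bcat1 at 1.2 (1.14 to 1.26) and Got2 at 0.894 (0.841 to 0.951). Of 8 measured enzymes of transsulfuration and glutathione 1 was higher, Gclc, the rate-limiting enzyme of glutathione synthesis.

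All but 1 of the 23 measured cytosolic tRNA synthetase genes, a list that includes the tRNA exporter Xpot, had a ratio above 1, but only 4 passed the rule and 0 were lower. Over all measured genes 4.77% were higher, and the median log2 ratio of the synthetase list was 0.24. Xpot was 1.60-fold (1.43 to 1.79) higher, at 56.9 CPM against 35.6 CPM. Eprs, the glutamyl-prolyl synthetase, stood at 193, 288, 380.5, 456 and 559 CPM from group 1 to group 5 and 77.5 CPM in vehicle cells, a ratio of 1.47 (1.42 to 1.52). Wars and Sars, the tryptophanyl and seryl synthetases, were 1.40-fold (1.29 to 1.52) and 1.40-fold (1.35 to 1.44) higher. Of 4 measured mitochondrial synthetases 1 was higher, Fars2 at 1.3-fold (1.15 to 1.46), and in 9 of the 21 settings its fold was under the rule.

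Genes of the NRF2 antioxidant response also held large ratios. NRF2 switches on genes that detoxify oxidants and make glutathione, and of the ranking genes at least Slc7a11 is known as a target of both factors. Of 22 measured 8 were higher and 0 lower, where 4.77% of all measured genes were higher, and the median log2 ratio was 0.20. Hmox1, haem oxygenase, stood at 45.2, 60.9, 79.1, 125 and 184 CPM from group 1 to group 5 and 17.4 CPM in vehicle cells, a ratio of 2.33 (2.17 to 2.50). Nqo1, a quinone reductase, stood at 16.1, 25.1, 37.7, 45.6 and 70.7 CPM and 3.47 CPM in vehicle cells, a ratio of 1.88 (1.69 to 2.08). Gclc was 1.75-fold (1.60 to 1.91) higher and Nfe2l2, the gene of NRF2 itself, 1.70-fold (1.5 to 1.93) higher. Nfe2l2 was level in the lower groups, at 24.3, 23.8 and 27.0 CPM in groups 1 to 3, and reached 45.8 CPM in the upper cells. Further members past the rule, named after their values were seen, were Mafg, Gstp1, Sqstm1 and Txnrd1, with log2 ratios of 0.51, 0.48, 0.38 and 0.37. Gstp1 has similar copies among which reads can be divided. With Slc7a11 taken out of the ranking, an alternative added after the data were seen, the list's median was 0.16. It was 0.19 with Ddit3 and Sesn2 taken out instead.

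**Figure D5:**
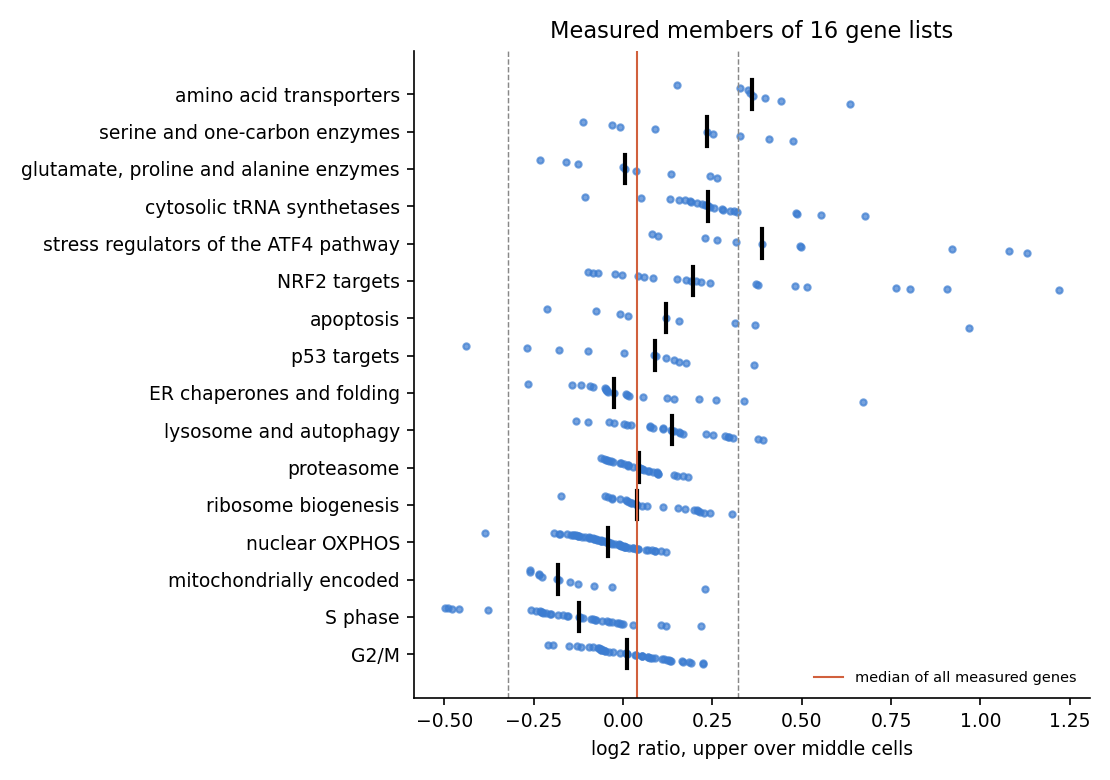
Log2 ratio of upper to middle cells (x axis) for each measured member (points) of 16 gene lists, with the median of each list as a black bar, the median of all measured genes as an orange line and the rule either way as dashed lines. Transporters, stress regulators, tRNA synthetases and NRF2 targets lie mainly to the right, S phase and mitochondrially encoded genes mainly to the left.

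Casp4, an inflammatory caspase, stood at 27.5, 51.7, 73.5, 103 and 144 CPM from group 1 to group 5 and 9.97 CPM in vehicle cells, and was 1.96-fold (1.82 to 2.11) higher in the upper cells. The 9 measured apoptosis genes had a median log2 ratio of 0.12, and 0 were lower. Of 12 measured p53 targets 1 was higher, the p53 ligase Mdm2 at 1.29-fold (1.16 to 1.43), and 1 lower, the antiproliferative gene Btg2 at 1.36-fold (1.28 to 1.44). The CDK inhibitor gene Cdkn1b was 1.35-fold (1.18 to 1.55) higher, 1 of 5 measured in its list. Cdkn1a, named after its value was seen, had a log2 ratio of 0.09.

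Ifi27l2b stood at 19.0, 38.6, 65.0, 97.9 and 151 CPM from group 1 to group 5 against 0.707 CPM in vehicle cells, and was 2.33-fold (2.16 to 2.52) higher in the upper cells. Its level is uncertain, since reads can be divided among related copies. Nfil3, a bZIP repressor, was 1.99-fold (1.67 to 2.38) higher, and Igfbp3, which binds insulin-like growth factors, 1.84-fold (1.75 to 1.93) higher, at 295 CPM against 161 CPM. Phox2a, a homeobox factor of autonomic neurons, was 1.85-fold (1.52 to 2.26) higher on 287 and 161 UMIs. Tubb3, the class III beta-tubulin of neurons, was 2.25-fold (1.86 to 2.72) higher and stood at 7.01, 7.03, 11.1, 14.9 and 24.9 CPM with 4.44 CPM in vehicle cells. Of the other neuron markers, Map2 stood at 58.6 CPM in upper and 64.0 CPM in middle cells (ratio 0.916, 0.833 to 1.01), Rbfox3 had 21 and 24 UMIs and Dcx 1 and 0. For the list counts that follow, the shares over all measured genes were 4.77% higher and 1.00% lower. Slc2a1, the main glucose importer, was 1.71-fold (1.42 to 2.06) higher, and Adm, a hypoxia-responsive peptide, 1.32-fold (1.22 to 1.42), the 2 of 15 measured hypoxia and glycolysis genes past the rule. Of 6 measured interferon and antigen genes 2 were higher, Ifi27l2b and the tethering factor Bst2 at 1.56-fold (1.3 to 1.86), and 1 was lower, Ifitm2. Of 5 measured Wnt and hedgehog genes 1 was higher, the Wnt effector Lef1 at 1.36-fold (1.16 to 1.60). Of 12 measured tubulin and stathmin genes 2 were higher, Tubb3 and the stathmin Stmn3 at 1.49-fold (1.3 to 1.71). The middle levels of Slc2a1, Bst2 and Lef1 were 12.7, 14.3 and 18.7 CPM. These are under 20 CPM, so the 3 genes too were measured only through the upper cells.

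The letters of the ATF4 response element were searched in the promoters of all higher genes. A window was matched for 182 of the 224 higher genes, and 9 of them (4.95%) hold the letters, against 3.82% of all windows. They are Tubb3, with the same TTACATCA as Trib3 and Pck2 beginning 66 bases before its start, the transporters Slc38a1, Slc1a4 and Slc7a1, and Cox6a2, Mbnl2, Man1b1, Cwf19l2 and Actr8, named for the match and not for their values.

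The lower genes were fewer, and their differences were smaller. Zfp36l1, which promotes the decay of AU-rich messages, stood at 187, 182, 162, 145 and 110.0 CPM from group 1 to group 5 and 179 CPM in vehicle cells, and was 1.47-fold (1.38 to 1.57) lower in the upper cells. Emilin1, an elastin-linked matrix protein, was 1.44-fold (1.31 to 1.59) lower, with 97.1 CPM in group 1 and 50.1 CPM in group 5. Mknk2, a kinase of the cap-binding factor eIF4E, was 1.48-fold (1.29 to 1.70) lower, and Gchfr, which regulates GTP cyclohydrolase, 1.49-fold (1.28 to 1.74) lower. The 2 smallest ratios were those of Nme3, a nucleoside diphosphate kinase, at 1.58-fold (1.32 to 1.89) lower, and Ifitm2, of the interferon-induced membrane proteins, at 1.58-fold (1.32 to 1.89) lower. They rested on 199 and 205 UMIs in the upper cells. The upper level of both was under 20 CPM. Ifitm2 has related copies too, and its fold was under the rule in 5 of the 21 settings, that of Nme3 in 2. Aif1l, an actin-bundling protein, was 1.44-fold (1.21 to 1.73) lower, and the vehicle level of 82.6 CPM was above that of all 5 treated groups, 34.1, 26.9, 21.3, 17.4 and 14.7 CPM. Ttc9, Cplx2 and Mtrex were 1.47-fold (1.23 to 1.75), 1.45-fold (1.2499 to 1.68) and 1.41-fold (1.18 to 1.68) lower, the fold of Mtrex being under the rule in 8 settings. The upper levels of Aif1l, Ttc9 and Mtrex were 14.7, 15.2 and 15.3 CPM. These are under 20 CPM, so these genes were measured only through the middle cells.

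Few genes of DNA replication were called. Of 38 measured S phase genes 0 were higher and 5 lower, where 1.00% of all measured genes were lower, and the median log2 ratio was -0.12. The upper level of 3 of the 5, Cdt1, Cdc6 and Gins2, was under 20 CPM, so these were measured only through the middle cells. Of the 14 members under 20 CPM in both groups 4 had more CPM in the upper and 9 in the middle cells. The licensing factor gene Cdt1 was 1.41-fold (1.19 to 1.67) lower and Cdc6, which loads the helicase with it, 1.40-fold (1.2 to 1.64) lower. Gins2, a subunit of the replicative helicase, was 1.39-fold (1.19 to 1.63) lower, and the repair enzyme gene Ung 1.37-fold (1.251 to 1.51) lower. Ung stood at 70.8, 64.3, 73.5, 53.4 and 53.5 CPM from group 1 to group 5, so its highest level was that of the middle cells. Cdt1 stood at 28.1, 25.6, 23.7, 18.0 and 16.8 CPM from group 1 to group 5, and the vehicle level of 28.4 CPM was close to that of group 1. The cyclin gene Ccne2 was 1.3-fold (1.15 to 1.47) lower, the 1 of 8 measured G1 genes past the rule. In the 21 settings that move a ratio, the fold of Ung was under the rule in 6 and that of Cdt1 in 5. The folds of Gins2 and Ccne2 were under it in 4 each and that of Cdc6 in 3.

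The cells were also split by their cell cycle UMIs, to which these same genes contribute, so values after the split are not independent of it. Among cells below the median of 49 S phase and G2/M UMIs at 5000 UMIs, Cdt1 had a ratio of 0.532 (0.415 to 0.679), and among the other cells 0.981 (0.770 to 1.248). Cdc6 had ratios of 0.567 (0.454 to 0.704) and 0.996 (0.786 to 1.26), the S phase median was -0.37 and 0.01, and the G2/M median -0.33 and 0.06. Without the split, of 45 measured G2/M genes 0 passed the rule either way (median 0.01), where 5.78% of all measured genes did. In cells thinned to 5000 UMIs the mean S phase count was 13.2 (SD over cells 9.30) in upper and 14.4 (SD 8.41) in middle cells, and the mean G2/M count 32.6 (SD 23.9) and 33.3 (SD 21.2). The share of cells below the median was 50.9% (46.7 to 55.1) in upper and 51.6% (47.4 to 55.8) in middle cells.

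Most other cellular systems differed by less than the rule. For comparison, 4.77% of all measured genes were higher and 1.00% lower. The 21 measured chaperones and folding genes of the endoplasmic reticulum had a median log2 ratio of -0.03, and 2 were higher, the degradation factor Sel1l at 1.59-fold (1.32 to 1.92) and the oxidase Ero1a at 1.26-fold (1.09 to 1.47), whose fold was under the rule in 8 of the 21 settings. The middle level of Sel1l was 13.3 CPM, under 20 CPM, so it was measured only through the upper cells. Hspa5 (BiP), named after its value was seen, stood at 199 CPM in upper and 198 CPM in middle cells. Of 11 measured heat shock genes 1 was higher, Hspa4l at 1.58-fold (1.42 to 1.76), and of 12 mitochondrial chaperones and proteases 1, the protease Lonp1 at 1.48-fold (1.39 to 1.59). Lonp1 stood at 69.2, 80.7, 99.1, 114 and 147 CPM from group 1 to group 5 and 56.7 CPM in vehicle cells. Of 26 measured lysosome and autophagy genes 2 were higher, 1 of them the autophagy receptor Sqstm1 at 1.3-fold (1.21 to 1.39), and 0 lower (median 0.14). Of 36 translation factors 1 was higher, Eif2b3, a subunit of the exchange factor on which eIF2 phosphorylation acts, at 1.29-fold (1.2 to 1.39). None of 30 proteasome, 25 ribosome biogenesis, 20 cholesterol or 64 ribosomal protein genes passed the rule, with medians of 0.05, 0.04, -0.07 and -0.03.

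No mitochondrially encoded gene passed the rule, although their sum differed between the groups. Summed over 13 genes they stood at 58372, 52162, 47465, 45117 and 41649 CPM from group 1 to group 5 and at 60398 CPM in vehicle cells. Of 12 measured 0 passed the rule, 11 had a ratio below 1, and the median log2 ratio was -0.18. Mt-atp6 stood at 10502 CPM in upper and 11943 CPM in middle cells (ratio 0.879, 0.873 to 0.885). Of 60 nuclear genes of oxidative phosphorylation 1 was lower, Uqcrh at 1.31-fold (1.26 to 1.36), where 1.00% of all measured genes were lower. The median of these 60 genes was -0.04. Mitochondrial UMIs are part of the denominator of the stress share. With them left out of it, an alternative added after the data were seen, 220 genes were higher and the median of the mitochondrially encoded genes was again -0.18. Among cells with at most 5% mitochondrial UMIs 162 genes were higher and that median was -0.09. The median mitochondrial share moved with the ranking, and its part in these differences was not tested.

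The upper cells carried the markers of neural stem cells. Named from the marker lists, these stood at similar levels in upper and middle cells: Nes at 133 CPM in upper and 131 CPM in middle cells, Sox2 at 261 and 245 CPM, Sox9 at 75.7 and 76.6 CPM and Slc1a3 at 316 and 297 CPM. Vim stood at 4457 and 4781 CPM and Fabp7 at 1754 and 2003 CPM, and 0 of 8 measured members passed the rule. Vehicle levels were above those of the upper cells for Sox9 (137 CPM) and Fabp7 (2644 CPM). They were below for Nes (121 CPM), Sox2 (230 CPM), Slc1a3 (186 CPM) and Vim (4202 CPM). Summed, the list stood at 8117 CPM in group 1 and 7116 CPM in group 5, with 7647 CPM in vehicle cells. Oligodendrocyte precursor markers, summed, stood at 1572 CPM in group 1 and 1028 CPM in group 5, with 2271 CPM in vehicle cells. Olig1 carried most of this, at 1157, 979, 849.7, 775 and 733 CPM and 1687 CPM in vehicle cells, while Pdgfra and Sox10 had 1 UMI each in the upper cells. The Notch target Nrarp was 1.28-fold (1.16 to 1.41) lower, its fold being under the rule in 9 of the 21 settings, and the Notch list, summed, stood at 312 CPM in group 1 and 201 CPM in group 5, with 394 CPM in vehicle cells. Only 2 of its 20 members were measured.

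Defining markers of other cell types were mostly at or near 0. Gfap, Aqp4, Eomes, Neurog2, Aif1, Ptprc, C1qa, Cldn5 and Hbb had 0 UMIs in the upper cells, which allows up to 0.213 CPM each when 3 counts are taken as the limit of a count of 0. S100b, an astrocyte marker, had 96 and 121 UMIs in upper and middle cells, and Gja1 stood at 38.2 and 38.7 CPM. The sum over 10 mesenchymal markers (pericytes and fibroblasts included) was 28.1 CPM in group 1 and 10.5 CPM in the upper cells. Col1a1 had 2 UMIs in 2 upper cells and 38 UMIs in 5 middle cells, 34 of them in 1 cell. Tagln had 124 UMIs in 48 upper cells and 88 UMIs in 44 middle cells, a ratio of 1.46 (1.10 to 1.94). Its levels of 8.79 and 6.02 CPM were under 20 CPM in both groups, and 17 UMIs lay in 1 cell of each group. Group 1 held more, 188 UMIs in 70 cells (13.4 CPM). Col3a1 had 4 UMIs in 4 upper cells and 43 UMIs in 3 middle cells, 41 of them in 1 cell. Summed markers of microglia, endothelium and red cells reached 1.28, 0.638 and 0 CPM in the upper cells and 0.821, 0.274 and 0 CPM in the middle cells.

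The direction of the called genes was read in treated cells that took no part in the comparison. Of the 224 higher genes 180 (80.4%) were also higher in group 2 than in group 1, against 52.0% of all measured genes. Of the 47 lower genes 41 (87.2%) were also lower in group 2 than in group 1, against 48.0% of all. These groups come from the same library and were cut by the same score.

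Vehicle cells were ranked by the same score as a background. The top 142 vehicle cells had a median of 4 UMIs of the 9 genes and the middle 142 a median of 1, so this ranking rests on very few UMIs. By the same rule 356 of 4634 genes measured there (7.68%) were higher in the top vehicle cells and 204 (4.40%) lower. Of the 224 genes higher in the upper treated cells 130 were measured there, and 30 of them (23.1%) passed the rule in the same direction, against 7.53% of the 4330 genes measured in both. Of the 47 lower genes 42 were measured there, with 3 lower and 3 higher. The ATF4 targets outside the ranking were also higher in the top vehicle cells, with 25 of 31 past the rule upwards and 0 downwards, and a list median of 0.39 on the log2 scale. Among them Slc3a2 had a vehicle ratio of 1.58 (1.42 to 1.77) and Shmt2 1.78 (1.55 to 2.06). NRF2 targets had 2 of 19 higher and a median of 0.09, with Hmox1 at 1.31 (0.891 to 1.93) and Nqo1 at 1.34 (0.593 to 3.05). S phase genes had 5 of 39 higher, 1 lower and a median of 0.12 among vehicle cells, the other sign than among treated cells. Whether the libraries differ in these values was not tested.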

How the data were processed

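The cultures of rat neural stem cells, 1 per group, were sequenced as droplet libraries. The deposited values are raw UMI counts per gene and barcode, joined for both libraries in 1 matrix of 25399 genes and 4691 barcodes with 91693189 UMIs. They were made with Cell Ranger, per the submitters' processing notes, and the matrix header names software version 3.0.2. Sources used here do not give the genome build, the annotation or any further filter of the authors. Barcodes were tied to a sample by the number after the hyphen and the number in its title.

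From the counts, cells were filtered, ranked and grouped as described above with Python 3.11.15, numpy 2.4.6 and scipy 1.17.1, and UMIs were summed per group and given as CPM. Ratios carry exact (Clopper-Pearson) 95% intervals of counting error, levels exact Poisson intervals, and shares of cells exact binomial intervals, while a count of 0 is given with the limit of 3 counts. UMIs of 1 library are not independent of culture, so these intervals say nothing about spread between cultures. A gene was measured from 20 CPM in either group and called 25% above or 20% below. The depth per kept cell ran from 5003 to 57060 UMIs in the upper and from 5020 to 74594 in the middle cells. Doublets were marked with scrublet in scanpy 1.11.5, at an assumed 0.8% per 1000 cells, and kept, then left out in another setting.

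Genes were named by rule: the 9 ranking genes, Atf4, the 12 largest and 12 smallest ratios of genes with a symbol, up to 4 members per list past the fold (or the 2 most abundant where none passed) and defining cell type markers. Exceptions are stated, and some genes the rule names are not reported here. Members and lists were chosen with earlier results of these data known. Of 960 list entries 930 were matched by symbol. Calls and intervals were run on simulated summed counts with counting error only, which held no cells and no ranking. That run checks the code and says nothing about spread between cells. Promoter windows came from RefSeq (GRCr8), and figures were drawn with matplotlib 3.10.9. Barcodes outside the filter were left out of the comparisons. Alternatives covered the size of both groups, the ranking, thinning, the filters, scaling, the floor, the fold, doublets and the cell cycle.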

Additional observations from a re-analysis of the deposited data

How the results depend on the processing

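Of 24 other settings, 20 were planned and 4 added after the data were seen (rankings without Slc7a11, on Ddit3, Trib3, Chac1 and Sesn2, on the other 5 genes, and on a share without mitochondrial UMIs). None of the 61 named genes past the rule outside the ranking changed direction. In the 21 settings that move a ratio, the fold of 23 stayed past the rule and that of 38 went under it in at least 1. Of the 61, 30 were called at a floor of 50 CPM, 22 at 1.5-fold and 10 by the floor and fold of every setting. The 224 higher and 47 lower genes became 385 and 92 for the top 10%, 146 and 28 for the top 30%, 695 and 399 against the bottom 20%, 501 and 200 with levels from thinned cells, 84 and 18 at a floor of 50 CPM, 1946 and 1627 with no floor beyond 3 UMIs, and 35 and 2 at 1.5-fold. Only the higher count moved with ranking on thinned cells (133) and on Asns, Cth, Pck2, Slc7a11 and Slc7a3 (143). Only the lower count moved against all other cells (101) and with scaling without ranking, mitochondrial and ribosomal genes (79). Among cells below the median of cycle UMIs 414 were higher and 166 lower, and among the rest 76 were lower. The median log2 ratio of ATF4 targets outside the ranking, 0.33, was 0.41 for the top 10%, 1.05 against the bottom 20%, 0.46 against all other cells, 0.42 with levels from thinned cells, 0.23 at 5% mitochondrial UMIs or less and 0.26 ranked on Ddit3, Trib3, Chac1 and Sesn2. It stayed above 0 in every setting. The causes were not tested. No paired analysis was possible because each group was 1 library and both groups of treated cells come from the same one. Depth limits what can be said of genes under 20 CPM in both groups. Counting error is the only error given, and nothing here bears on spread between cultures.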

Other observations

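Treated barcodes that failed the filter also carried the 9 genes, and those with a high mitochondrial share carried them at a higher level than kept treated cells. Low-depth barcodes here had fewer than 5000 UMIs and at most 10% mitochondrial UMIs, and barcodes above 10% were counted apart at any depth. The 465 low-depth treated barcodes held 1037 CPM of the 9 genes (exact Poisson 95% interval 965 to 1112). The 546 treated barcodes with more than 10% mitochondrial UMIs held 1133 CPM (1086 to 1181), where all 2838 kept treated cells held 1030.2 CPM (1023 to 1038). The vehicle barcodes outside the filter held 121 CPM (52.1 to 238) in 28 barcodes of low depth and 75.0 CPM (48.0 to 112) in 104 barcodes with a high mitochondrial share, where the 710 kept vehicle cells held 91.1 CPM. Of the low-depth treated barcodes 133 (28.6%) and of those with a high mitochondrial share 170 (31.1%) lay at or above the lower edge of the upper cells. In vehicle, 0 of 28 and 1 of 104 did. The median depth of these 4 sets lay between 1184 and 2843.5 UMIs, so few UMIs of the 9 genes place a barcode at the edge.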
